A study of Mus musculus with 8 samples.

Results

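Genes that keep naive T cells at rest and on the move between blood and lymphoid organs were read in mouse spleens with and without lymphoma. The set held 9 genes, *Tcf7*, *Lef1*, *Satb1*, *Bach2*, *Foxo1*, *Foxp1*, *Klf2*, *S1pr1* and *Id3*, of 19505 genes with a symbol on the array. A gene was read from the transcript cluster (the probe set that covers the exons of a gene) that carried its symbol, and from the cluster with the highest mean over all arrays where several did. No cluster carried the symbol *Tcf7*, which was not analysed here, and each of the other 8 genes had 1 cluster, so that no cluster was in fact selected on its level. The genes themselves were chosen by role with earlier results of these arrays known, so their counts describe these spleens and are no independent evidence.

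Total RNA of spleens from C57BL/6 mice was read on the Affymetrix Clariom S HT platform, with 4 control arrays (Trp53KI/KI) and 4 arrays of lymphoma-bearing animals (Trp53KI/KI;Vav1DC/DC). Both groups carried the same knock-in allele, whose product is fused to the estrogen receptor and mostly inactive without 4-hydroxytamoxifen. The lymphoma group also carried 2 copies of a *Vav1* allele whose protein lacks the end of its C-terminal SH3 domain, made at the endogenous locus and therefore not limited to T cells, so that disease and *Vav1* genotype cannot be told apart. The study describes the disease as a lymphoma of CD4+ T cells with features of follicular helper cells. The age of the arrayed animals is not given in the sources used here, and the labels do not say whether the arrays are separate animals, so that a p-value here measures only the spread between arrays. A figure legend of the study speaks of triplicates, whereas each group has 4 arrays, and what this means for the arrays used here is not known. Values are log2 signals made with the robust multichip average (RMA), and differences are lymphoma minus control on that scale. *Vav1* itself had a mean of 10.18 ± 0.15 (SD, n = 4) on the control arrays against 10.49 ± 0.08 (SD, n = 4) on the others. It was thus called higher in the lymphoma group (log2 fold change 0.31, limma adjusted p = 0.0149). This signal does not read the stop codons of the allele. Some Y-linked genes, chosen after their values were seen, were lower in the lymphoma group (log2 fold change -1.38 for *Kdm5d*, -1.28 for *Eif2s3y* and -1.25 for *Uty*), and lowest on lymphoma array 3. Their mean signals were 9.04, 10.73 and 9.33 in the control group and 7.7, 9.4 and 8.1 in the lymphoma group. All were well over background in both groups. The study's methods name females for its in vivo work, whereas its results mention cohorts of both sexes for mice with the *Vav1* allele alone. The labels give no sex for these arrays, and its part in the values below was not tested.

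A naive T cell is kept out of the cell cycle by an active programme. TCF7 (TCF-1) and LEF1 are related DNA-binding proteins that set T cell identity, SATB1 folds chromatin in T cells, and BACH2 and the forkhead factors FOXO1 and FOXP1 hold back effector differentiation and growth. FOXO1 activates the gene of KLF2, KLF2 activates that of S1PR1, and S1PR1, the receptor of sphingosine 1-phosphate (S1P), lets lymphocytes leave lymphoid organs for the blood. ID3 binds E proteins, keeps them off DNA and restrains the follicular helper fate. When the T cell receptor signals, AKT drives FOXO1 out of the nucleus and the programme is switched off. Several of these genes are not particular to T cells, since naive B cells make BACH2, FOXO1, FOXP1, KLF2 and S1PR1, and endothelium makes KLF2 and S1PR1.

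All 8 measured genes were lower in the lymphoma spleens, by 3.18-fold for *Lef1* to 1.21-fold for *Klf2*. Called lower (limma, Benjamini-Hochberg adjusted p up to 0.05) were 8 of 8, against 17.2% of the 22206 transcript clusters on the array, and called higher were 0 of 8, against 18.2% (35.4% in either direction). These shares include dim clusters, whereas the 8 genes lay at percentiles 45.5 to 98.9 of mean level. The values of the groups did not overlap for 7 of the 8, as for 34.7% of all clusters (16.7% lower and 18.0% higher). Their median log2 fold change was -0.88, beside -0.06 over all clusters. A fall of at least 2-fold was measured for *Lef1*, *Satb1* and *S1pr1*, and was called for 0.68% of all clusters. The spleen is a mixture of cells, and fewer cells of a type cannot be told apart from less RNA per cell in any of these values.

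**Figure D1:**
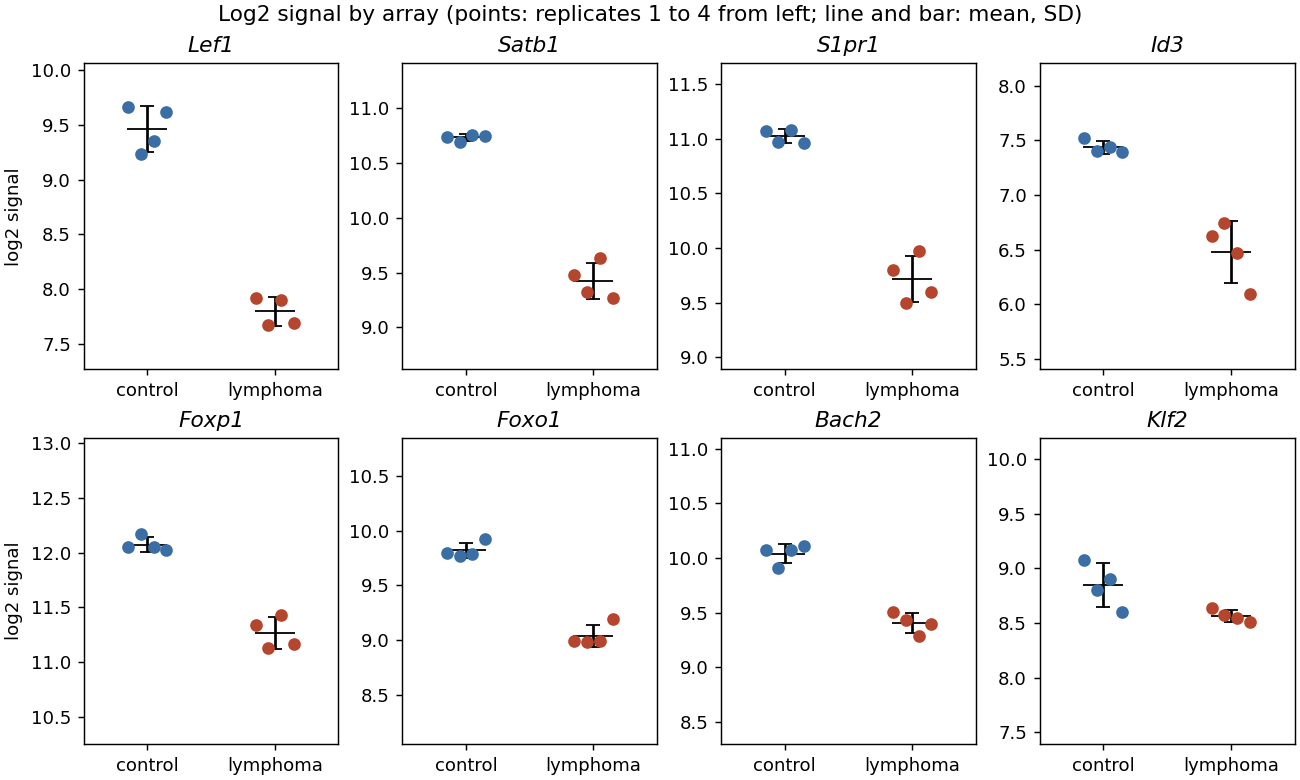
Log2 signal of the 8 measured genes on each array, in order of their fall, with control arrays in blue and lymphoma arrays in red (points are arrays, the line and bar the mean and SD of 4 arrays, and each panel spans the same log2 range). The groups lie apart for all genes except *Klf2*, whose control array 4, at 8.60, lies below lymphoma array 1, at 8.64.

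*Lef1* (cluster TC0300001330.mm.2) had the largest fall of the set. It was at 9.66, 9.23, 9.35 and 9.62 on control arrays 1 to 4 and at 7.92, 7.67, 7.90 and 7.69 on lymphoma arrays 1 to 4. Every lymphoma array lay more than 1 log2 unit below the lowest control array. The group means were 9.47 ± 0.21 (SD, n = 4) and 7.80 ± 0.13 (SD, n = 4), and their difference of -1.67 ± 0.11 (standard error, limma adjusted p = 1.25e-07) ranked 21 of 22206 clusters from the most negative.

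*Satb1* (cluster TC1700002267.mm.2) was next, with control values of 10.74, 10.69, 10.76 and 10.75 and lymphoma values of 9.48, 9.32, 9.63 and 9.27. The control arrays were nearly level, with a range of 0.07, and the lymphoma arrays spread over 0.35, all of them below every control array. It changed by -1.31 ± 0.09 (standard error, limma adjusted p = 1.65e-07), or 2.48-fold.

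The stretches before the start sites of *Lef1* and *Satb1*, the transcription factor genes with the largest falls, and of *Klf2*, with the smallest, are shown as examples. Each runs 5′ to 3′ over the 250 bases before the most upstream RefSeq start of the gene (GRCm38.p6), with capitals for CACCC, the core bound by KLF proteins, on either strand (GGGTG on the other).
Lef1, chr3:131110047-131110296, plus strand: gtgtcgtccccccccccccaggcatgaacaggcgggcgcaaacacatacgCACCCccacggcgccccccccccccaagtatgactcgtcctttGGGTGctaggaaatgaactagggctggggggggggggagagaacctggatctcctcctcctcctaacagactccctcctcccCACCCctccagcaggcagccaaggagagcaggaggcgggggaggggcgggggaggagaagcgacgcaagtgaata
Satb1, chr17:51833291-51833540, minus strand: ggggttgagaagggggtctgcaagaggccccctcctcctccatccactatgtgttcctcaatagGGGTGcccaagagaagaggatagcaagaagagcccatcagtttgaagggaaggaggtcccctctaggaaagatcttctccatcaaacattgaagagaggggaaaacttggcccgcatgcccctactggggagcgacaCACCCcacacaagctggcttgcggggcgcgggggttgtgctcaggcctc
Klf2, chr8:72318812-72319061, plus strand: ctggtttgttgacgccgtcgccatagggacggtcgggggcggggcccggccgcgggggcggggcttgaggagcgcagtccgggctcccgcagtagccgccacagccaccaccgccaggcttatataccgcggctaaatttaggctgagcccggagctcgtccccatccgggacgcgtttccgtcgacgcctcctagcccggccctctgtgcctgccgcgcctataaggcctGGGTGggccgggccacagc

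The *Lef1* window holds 3 such cores, that of *Satb1* 2 and that of *Klf2* 1. The window before the most upstream start of *Id3* holds 2. That of *Foxo1* holds 0. The most upstream windows found for *Foxp1* and *Bach2*, which do not lie at the 5′ end of the gene, hold 3 and 0. Whether the number of cores goes with the falls was not tested. Among all 32851 windows of this length in the RefSeq promoter table, 52.0% hold CACCC on either strand, so that its presence sets none of these genes apart. RefSeq windows were found for 7 of the 8 genes, 16 windows in all, and 12 of them, from 5 genes, hold this core. Some windows of *Lef1* and of *Satb1* overlap, so these are not counts of separate stretches. The full FOXO site GTAAACA (3.17% of all windows), the letters CTTTGAT, bound by TCF and LEF proteins (3.21%), and TGAGTCA, bound by BACH proteins (4.46%), are in none of the 16 on either strand. The forkhead core TGTTT, which the FOXO site contains on its other strand, is in 11 of the 16 (46.4% of all windows), and the E protein site CACCTG is in 1 of the *Foxp1* and 1 of the *Satb1* windows (17.2% of all windows). A match of letters is a description and not a site of binding, and a missing match says only that these letters are not in these windows.

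The forkhead genes *Foxo1* and *Foxp1* had fold changes that lay within a standard error of each other. *Foxo1* (cluster TC0300000376.mm.2) was at 9.80, 9.77, 9.79 and 9.92 in control and at 8.99, 8.98, 8.99 and 9.19 in lymphoma spleens. Lymphoma array 4 stood above the other 3, which were almost the same, and still lay well below the lowest control array. The change was -0.78 ± 0.08 (standard error, limma adjusted p = 5.83e-06), 1.72-fold lower.

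*Foxp1* (cluster TC0600003601.mm.2) was at 12.05, 12.17, 12.05 and 12.02 in control and at 11.34, 11.13, 11.43 and 11.16 in lymphoma spleens. Lymphoma arrays 2 and 4 were the lowest, and no lymphoma array reached a control array. It fell 1.75-fold (-0.81 ± 0.09, standard error, limma adjusted p = 9.96e-06).

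*Bach2* (cluster TC0400000254.mm.2), which encodes a repressor of effector genes in T cells and of plasma cell genes in B cells, was at 10.07, 9.91, 10.07 and 10.11 in control and at 9.51, 9.43, 9.29 and 9.40 in lymphoma spleens. The groups did not overlap, though the gap between them was the narrowest of the 7 genes that were separated, at 0.40. It fell 1.55-fold (-0.63 ± 0.08, standard error, limma adjusted p = 4.21e-05).

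*Id3* (cluster TC0400001677.mm.2) had the widest spread of the set in the lymphoma group. Its control values were 7.52, 7.40, 7.44 and 7.39, and its lymphoma values 6.62, 6.74, 6.47 and 6.09. Lymphoma array 4 was the lowest, and all 4 stayed above the median of the background probe sets of their array, which lay between 4.76 and 4.94 on all arrays. Its fall was 1.94-fold (-0.96 ± 0.12, standard error, limma adjusted p = 3.54e-05).

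The homing genes *S1pr1* and *Klf2* had unlike fold changes. *S1pr1* (cluster TC0300002797.mm.2) was at 11.07, 10.97, 11.08 and 10.96 in control and at 9.80, 9.50, 9.97 and 9.60 in lymphoma spleens. Each lymphoma array was below each control array by close to 1 log2 unit or more, and lymphoma arrays 2 and 4 were again the lowest. It was 2.47-fold lower (-1.30 ± 0.10, standard error, limma adjusted p = 5.76e-07), close to that of *Satb1*.

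*Klf2* (cluster TC0800000823.mm.2), whose product activates *S1pr1*, was at 9.08, 8.80, 8.90 and 8.60 in control and at 8.64, 8.57, 8.55 and 8.51 in lymphoma spleens. The control arrays spread widely, the lymphoma arrays were tight, and the groups overlapped through control array 4. It changed by -0.27 ± 0.10 (standard error, limma adjusted p = 0.0456), which ranked 3547 of 22206 clusters from the most negative. This call held only narrowly. It was lost without control array 1 (log2 fold change -0.19, adjusted p = 0.128), 2 (adjusted p = 0.0652) or 3 (adjusted p = 0.0941), and without lymphoma array 1 (adjusted p = 0.0596), 2 (adjusted p = 0.0848), 3 (adjusted p = 0.0871) or 4 (adjusted p = 0.0924), and kept without control array 4 (log2 fold change -0.35, adjusted p = 0.0102). The falls of the other 7 genes kept their call without any 1 array.

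**Figure D2:**
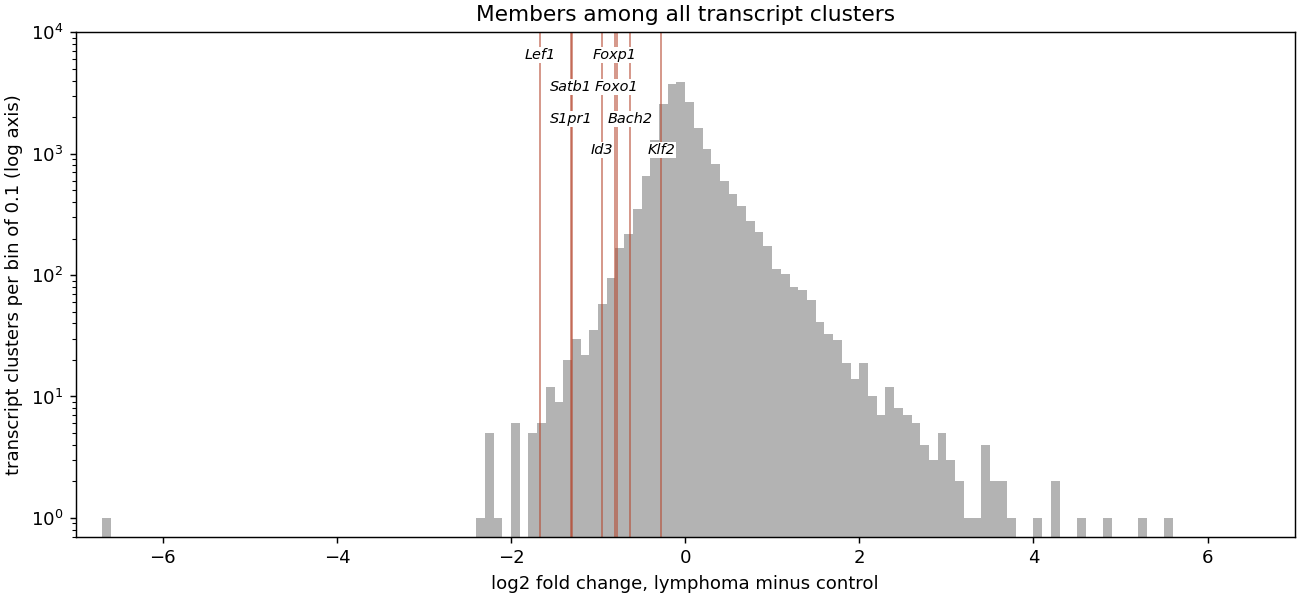
Log2 fold change of the 22206 transcript clusters (grey, number per bin of 0.1 on a log axis), with a red line at each of the 8 measured genes. *Lef1*, at -1.67, lies furthest out and *Klf2*, at -0.27, lies inside the bulk, whose median is -0.06.

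Across the lymphoma arrays some of the genes shared an order. In 4 of the 8, *Lef1*, *Satb1*, *Foxp1* and *S1pr1*, lymphoma arrays 2 and 4 were both below lymphoma arrays 1 and 3. *Foxo1*, *Bach2*, *Id3* and *Klf2* did not follow it. The order was not particular to the set. Several marker and gene lists described below had it in their means, among them pan-T, B cell and NK cell markers and other naive genes. The pan-T mean was 9.14, 9.04, 9.20 and 9.03 on lymphoma arrays 1 to 4, and the B cell mean 10.28, 10.21, 10.35 and 10.16. Means of myeloid and plasma cell markers and of proliferation genes did not have it. With 4 arrays no correlation between the genes was computed.

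The levels were also set beside lineage markers read on the same arrays. The 16 measured pan-T cell markers did not fall with the set: 9 were higher, 1 lower and 6 were not called, with a median log2 fold change of 0.33, and their mean level was 8.70 to 8.82 on control and 9.03 to 9.20 on lymphoma arrays. *Cd6* was higher by 1.19, *Cd4* by 0.85, *Cd3e*, a chain of the T cell receptor complex, by 0.83 and the kinase gene *Zap70* by 0.69, whereas *Trat1*, which encodes a membrane adaptor of that complex, changed by -1.23. *Cd4* is on this list, and in its mean, although it marks only a subset of T cells. The study reports abnormally high numbers of CD4+ T cells in mice of the lymphoma genotype. The 15 measured B cell markers did fall, 14 called lower and none higher, with a median of -0.85, and their mean level went from 11.06 to 11.15 on control arrays to 10.16 to 10.35 on lymphoma arrays. *Cr2* changed by -1.93, *Fcer2a* by -1.79, *Ebf1* by -1.40, *Pax5* by -1.00 and *Ms4a1* by -0.94. No marker of either list lay at or below the background median on any array. Over all clusters 18.2% were called higher and 17.2% lower.

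Relative to the mean of the pan-T markers of the same array, all 8 genes were lower in every lymphoma spleen than in every control spleen, as were 55.5% of all clusters (6.66% were higher). The marker mean was itself higher in lymphoma spleens, so that subtracting it moves every gene down, and the median difference over all clusters was -0.38 on this scale. For *Lef1* the gene minus marker value was 0.69 ± 0.17 (SD, n = 4) in control and -1.31 ± 0.06 (SD, n = 4) with lymphoma, a difference of -2.00. *Satb1* and *S1pr1* had differences of -1.64 and -1.63, *Id3*, *Foxp1*, *Foxo1* and *Bach2* of -1.29, -1.13, -1.11 and -0.96, and *Klf2* of -0.60. The groups were apart for *Klf2* on this scale, although they overlapped in its signal. With the median of the pan-T markers in place of their mean, all 8 were again lower without overlap, as were 62.9% of all clusters (4.23% were higher).

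Relative to the mean of the B cell markers, which fell, subtraction moves every gene up, and the median difference over all clusters was 0.79. On this scale 0.446% of all clusters were lower without overlap and 94.6% higher. *Lef1*, *Satb1* and *S1pr1* were lower without overlap, with differences of -0.82, -0.46 and -0.46. *Klf2* was higher without overlap, by 0.57, and *Bach2*, *Foxo1*, *Foxp1* and *Id3* overlapped, with differences of 0.21, 0.06, 0.04 and -0.11. With the median of the B cell markers in place of their mean, a choice made after seeing the data, *Bach2* and *Foxp1* joined *Klf2* as higher without overlap, and the same 3 genes were lower (0.288% of all clusters lower and 96.6% higher). These are differences between values of the same arrays with no test, and what part the shift in B cells had in the falls was not tested.

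**Figure D3:**
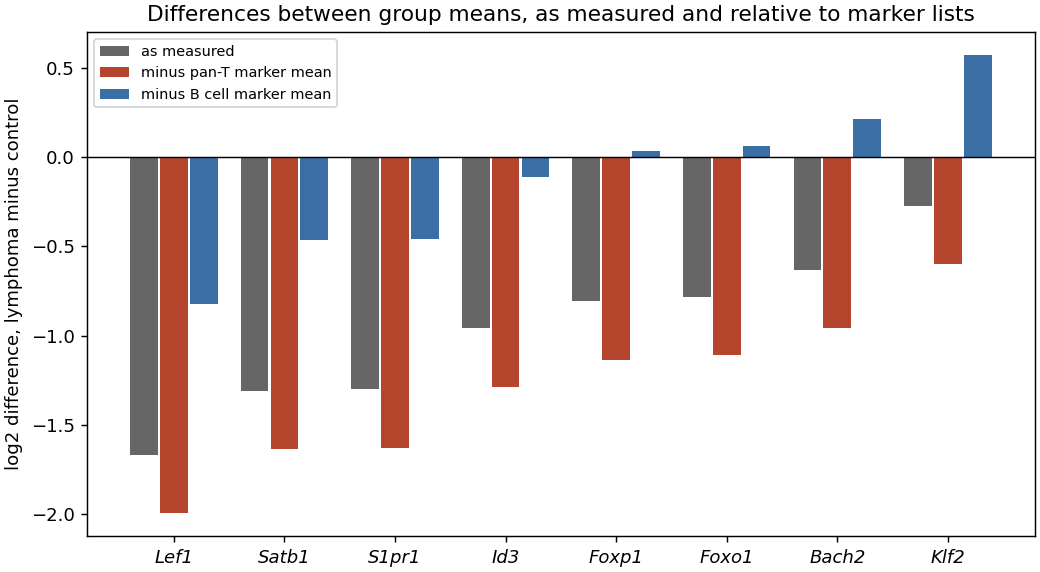
Difference between group means (lymphoma minus control, log2; 4 arrays per group) for each gene as measured (grey), after subtracting the mean of the pan-T cell markers of each array (red) and after subtracting that of the B cell markers (blue). The red bars run from -2.00 for *Lef1* to -0.60 for *Klf2*, and the blue bars from -0.82 for *Lef1* to 0.57 for *Klf2*, beside medians over all clusters of -0.38 and 0.79.

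Markers of the other cells that could hold these transcripts are given beside them. Of 13 endothelial markers, 2 were higher, 1 lower and 10 not called, with a median of -0.03: *Eng* was higher by 0.96 and *Erg* by 0.40, and *Pecam1* changed by -0.88. Myeloid and neutrophil markers were higher in 10 of 11 with a median of 2.38, proliferation genes in 13 of 13 with a median of 1.44, plasma cell markers in 4 of 7 (1 lower), erythroid markers in 1 of 5 (none lower), and NK cell markers in 1 of 6 (3 lower). Over all clusters 18.2% were called higher and 17.2% lower. The part of these cells in the falls of the set was not tested.

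Other genes of the naive programme mostly fell too. Of 30 measured on a list of 32 genes, 19 were called lower, 1 higher and 10 were not called, with a median log2 fold change of -0.35 (17.2% of all clusters called lower). The B cell markers read in the same spleens fell with a median of -0.85 (14 of 15 called lower). What part B cells had in the falls of this list was not tested. *Dapl1*, a transcript of naive T cells, went from 8.78 to 7.11, 3.17-fold lower (log2 fold change -1.67, limma adjusted p = 1.75e-08). *Il7r*, the receptor of interleukin 7 on which naive T cells depend for survival, was 1.97-fold lower (-0.98, limma adjusted p = 0.000115). *Arhgap15*, which encodes an inactivator of RAC, changed by -1.09, *Gpr183*, the oxysterol receptor that guides lymphocytes within follicles, by -0.92 and *Als2cl* by -0.88. *Ccr7*, the chemokine receptor for entry into lymph nodes and the T zone, was named for its role after its values were seen, and changed by -0.61 (limma adjusted p = 0.000121).

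The list also held genes that did not fall. *Actn1*, named after its value was seen, was the only one called higher, at 0.37 (limma adjusted p = 0.0164), and lost its call without lymphoma array 1 (adjusted p = 0.0536). *Bcl11b*, *Ikzf1* and *Slfn2*, chosen after their values were seen, had -0.06, -0.05 and -0.06 and were not called (limma adjusted p = 0.643, 0.603 and 0.539). Of the genes called lower, *Klf13* lost its call without any 1 of the 8 arrays and with the replicate number as a block, and *Tob1* and *S1pr4*, named like it for this loss alone, without some of them.

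**Figure D4:**
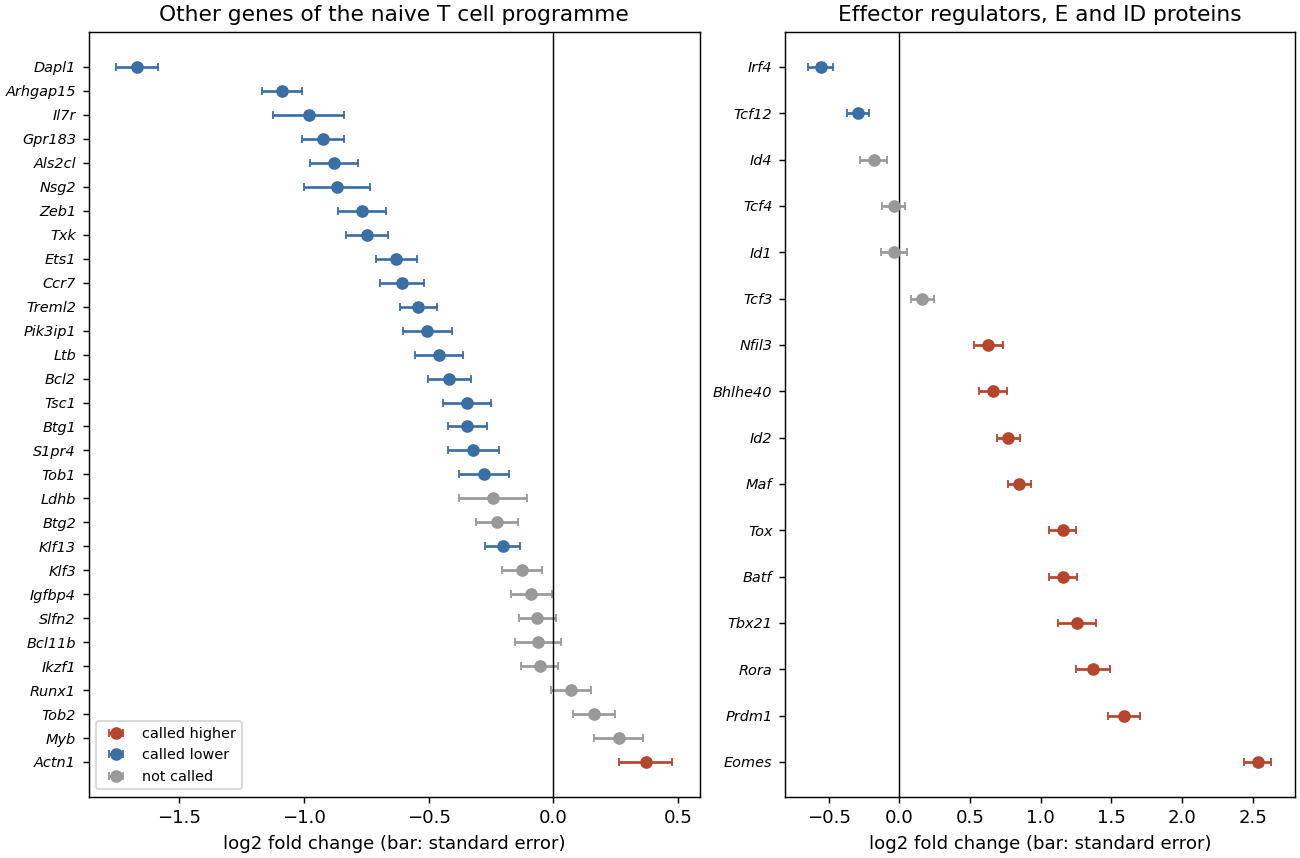
Log2 fold change (lymphoma minus control) with its standard error for the 30 other naive programme genes (left) and for 10 effector regulators with 6 E and ID proteins (right), coloured by call at an adjusted p of at most 0.05. On the left 19 genes are lower, down to -1.67 for *Dapl1*, and on the right *Eomes* is the highest at 2.54.

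Regulators that naive factors hold back, or that take over in effector T cells, moved the other way. Of 10 measured, 9 were higher, 1 was lower and none went without a call, with a median of 1.16 (18.2% of all clusters called higher). *Eomes* was higher by 2.54, *Prdm1*, which encodes BLIMP1 and is a target of BACH2, by 1.59, *Rora* by 1.37, *Tbx21* by 1.26 and *Batf* by 1.16. The exception, named after its values were seen, was *Irf4*, at -0.56 (limma adjusted p = 0.000273). *Prdm1* and *Irf4* are also on the list of plasma cell markers, of which 4 of 7 were higher. Myeloid and neutrophil markers were higher with a median of 2.38. What part such cells had in the values of these regulators was not tested.

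Around LEF1, the cofactor genes went both ways. Of 15 measured genes of TCF and LEF partners, 5 were higher, 4 lower and 6 not called, with a median of 0.01. Over all clusters 18.2% were called higher and 17.2% lower. Genes of the Groucho family of transcriptional cofactors split, with *Tle3* higher by 0.63 and *Tle5* by 0.52, and *Tle1* at -0.56. *Jup*, the relative of β-catenin, was higher by 0.52 and *Apc*, which promotes the breakdown of β-catenin, changed by -0.55. *Ctnnb1* was not analysed here. *Tcf7l2*, a gene of the same DNA-binding family as *Lef1*, was higher by 1.03. These are levels of whole spleens, and what part cells other than T cells had in them was not tested.

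Around FOXO1, the kinases that act on it and its known targets were read. Of 11 measured genes of the PI3K and AKT pathway, 3 were higher, 3 lower and 5 not called (18.2% of all clusters called higher, 17.2% lower). *Akt1* and *Akt2*, the kinases that send FOXO1 to the cytoplasm, were higher by 0.72 and 0.46, *Irs2* by 0.35, and *Pik3r1* and the AKT phosphatase gene *Phlpp1* changed by -0.38 and -0.30, the last with its call lost without control array 1 or 2 or lymphoma array 2, 3 or 4. These are RNA levels and do not read kinase activity. Of 13 measured FOXO targets, 5 were higher, 6 lower and 2 not called, with a median of -0.16 (18.2% of all clusters called higher, 17.2% lower). *Sesn1*, a stress-induced inhibitor of growth signalling, changed by -1.35 and *Il7r* by -0.98, whereas *Ctla4*, an inhibitory receptor, was higher by 1.89, *Cited2* by 1.01 and *Bcl2l11*, which encodes the death protein BIM, by 0.64. Of the related forkhead genes, named after their values were seen, *Foxo3* had 0.03 and *Foxo4* -0.15 with no call, and *Foxp4* was higher by 0.31.

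Around S1PR1, the fall was not shared by most genes of S1P transport and response. Of 13 measured, 4 were higher, 2 lower and 7 not called, with a median of 0.07 (18.2% of all clusters called higher, 17.2% lower). *Sgpl1*, the lyase that keeps S1P low inside tissue, was higher by 0.53, *Plpp3*, a phosphatase that acts on S1P outside cells, by 0.46, and *Gnai2*, the G protein subunit through which S1PR1 signals, by 0.45. *S1pr2*, a receptor that holds cells within germinal centres, was higher by 0.48 (limma adjusted p = 0.0218), with its call lost without control array 3 or lymphoma array 1 or 3. *Cd69*, whose product removes S1PR1 from the cell surface, changed by -0.42 (limma adjusted p = 0.00717).

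Of 6 E and ID protein genes other than *Id3*, *Id2* was higher by 0.77, *Tcf12* changed by -0.30 and 4 were not called. *Id2* and *Id3*, which encode proteins of the same kind, thus moved in opposite directions in whole spleens. Whether they did so in the same cells was not tested. Among 22 measured relatives of the set by family, 6 were higher, 3 lower and 13 not called, with a median of -0.04. Over all clusters 18.2% were called higher and 17.2% lower. Of the KLF genes among them, *Klf10* was higher by 0.72 and *Klf7* changed by -0.34, and *Nfe2l2*, a relative of *Bach2*, was higher by 0.41.

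The genes whose pattern over the 8 arrays was most like the mean of the set, by the root mean square difference of centred log2 values, were *Zcchc7* (0.0423), *Rasgef1b* (0.0437), *Clec2i* (0.0545), *Ift80* (0.0565) and *Xylt1* (0.0577). They had log2 fold changes of -0.90, -0.94, -0.93, -0.92 and -0.96. Falls of this size follow from the choice, since the profile is mainly the difference between the groups.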

How the data were processed

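Spleen RNA of control and lymphoma-bearing mice was read on Affymetrix Clariom S HT arrays, 4 per group. The extraction is given as Trizol in the labels and as a column kit in the methods. The authors deposited log2 values made with RMA (R 3.6.3, per the submitters' processing notes), which corrects background, gives all arrays 1 distribution of probe signals and sums up the probes of a cluster, so that a shift common to all genes cannot be seen. The genome build of the array annotation is not given in the sources used here. Of 29129 rows, 6923 control probe sets were left out. The platform annotation, which can be old, gave 19572 of 22206 clusters 1 symbol, 0 several and 2634 none. Array medians were 7.19 to 7.24, and correlations over clusters 0.992 to 0.995 within and 0.967 to 0.979 between groups. The number of arrays limits the precision.

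Groups, from the sample labels, were compared in R 4.3.3 with limma 3.58.1 (lmFit, eBayes, two-sided, Benjamini-Hochberg over all clusters, adjusted p of at most 0.05), which was tested on simulated arrays. Members, lists and tests were chosen with earlier results of these data known, and lists were counted with no set test. The rule for naming took, in each list, the 5 called genes with the largest change (lists of myeloid, erythroid, NK, plasma and proliferating cells are given as counts only), all members, *Vav1* and the 5 genes closest to the mean centred profile of the members; any other name was chosen after its values were seen. A value counted as background when it did not exceed the median of the antigenomic probe sets on its array. Alternatives were equal medians, cyclic loess, the replicate number as a block, trend and robust moderation, array weights, filters on dim clusters, a stricter threshold, each array left out, all clusters of a gene averaged and, chosen after seeing the data, the median of the markers. No hybridisation batch is given in the sources used here. Promoter sequences are from RefSeq (GRCm38.p6), whose windows were shortened to the bases before the start.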

Additional observations from a re-analysis of the deposited data

Results flagged for a closer look

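Among the 16 sets of 4 arrays (8 genes in 2 groups), 1 held a value that stood apart from the rest by Dixon's criterion, and chance alone gives such a value in about 1 in 20 sets. It was *Foxo1* in the lymphoma group, where array 4, at 9.19, lay above arrays 1 to 3, at 8.99, 8.98 and 8.99. Its gap to the nearest array was 0.921 of the range of the group, above the 95% critical value for 4 samples. *Foxo1* stayed lower in lymphoma spleens without that array, with its call kept.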

How the results depend on the processing

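Between 7 and 8 of the 8 measured genes were called lower, and 0 higher, under every alternative. At the stricter threshold of 0.01 the count was 7, as *Klf2* was lost, 7 without the dimmest 50% of clusters, which drops *Id3*, and 7 to 8 with each array left out, where only *Klf2* was lost. Of the refits of single genes, 120 kept the call and 7, all of *Klf2*, lost it; no direction changed. The log2 fold change ranged from -1.75 to -1.61 for *Lef1*, -1.38 to -1.26 for *Satb1*, -1.39 to -1.23 for *S1pr1*, -1.05 to -0.83 for *Id3*, -0.86 to -0.76 for *Foxp1*, -0.83 to -0.75 for *Foxo1*, -0.68 to -0.59 for *Bach2* and -0.35 to -0.19 for *Klf2*. Of the other naive programme genes 15 to 20 were called lower, and of the effector regulators 8 to 9 higher. Over all clusters, 2166 were lower and 3100 higher at a threshold of 0.01, against 3825 and 4039 at 0.05. Equal medians gave 4605 and 3740, and cyclic loess 3360 and 4142. Without the dimmest 50% of clusters, 2934 of those left were lower and 3644 higher. With the replicate block, 3983 clusters and 8 of the 8 genes were lower and 4039 clusters higher. Same-numbered arrays of the groups had correlations of deviations of 0.12, 0.04, 0.04 and 0.17. For each lymphoma array this was its highest value with any control array. Other pairs ranged down to -0.14, and control array 3 correlated best with lymphoma array 1 (0.06). What the numbers stand for is not given, so whether they mark a batch is not known, and the main fit used no pairing. Among the listed genes named in the text, *Klf13* alone lost its call with the block. The counts relative to the pan-T and B cell markers stayed at 8 and 3 lower without overlap with cyclic loess, with marker medians and with each array left out.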
